A study of Homo sapiens with 6 samples.

Results

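The interferon receptor chains IFNAR1, IFNAR2 and IFNGR1, the receptor-bound kinases JAK1 and TYK2 and the transcription factors STAT2, IRF9, IRF7 and IRF1 were examined after knockdown of RBM10, an RNA-binding splicing regulator. The 9 genes were taken by their symbols from a gene table of 16306 genes, with receptors and kinases set beside the factors they act on. RNA-seq had been done on the human lung adenocarcinoma line PC9, which carries an activating deletion within an exon of EGFR. There were 3 libraries with a control shRNA (sh-NC replicates 1 to 3) and 3 with an shRNA against RBM10 (shRBM10). No interferon or other agent is named for either group, no source used here says which RBM10 shRNA the sequenced cells carried, and no label says that the replicates came from separate cultures, so p-values measure only the spread between these libraries. Of the shRBM10 columns, only that of library A carries the name of a labelled sample (replicate 1), and the other columns are called libraries B and C.

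Cells sense interferons through paired receptor chains. Type I interferons bind IFNAR1 and IFNAR2, which carry TYK2 and JAK1, and interferon gamma binds IFNGR1 with IFNGR2, which carry JAK1 and JAK2. The activated kinases phosphorylate STAT proteins, and STAT2 and IRF9 are subunits of the complex ISGF3, which binds the interferon-stimulated response element (ISRE) of antiviral genes. STAT dimers bind the GAS element. IRF1 and IRF7 are themselves interferon-inducible, and IRF7 drives type I interferon transcription. Most of this control acts on the phosphorylation and location of proteins, which RNA-seq does not measure.

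The binding elements of these factors are shown first because 2 of the 9 genes and many of their target genes carry such an element in the promoter window. The window is 300 bases of RefSeq sequence (GRCh38.p14), 250 before and 50 after an annotated start, and 7 of the 9 genes had one, with 11 windows in all. IFNAR2 and IRF7 had no entry. The GAS letters searched were TTCNNNGAA, which read the same on both strands, and the ISRE core was GAAA, any 2 bases and GAAA again, on either strand; the motifs were searched separately and may share bases. A GAS match was found in IRF9 and IRF1, 2 of 7 genes (28.6%), against 9.38% of the 27305 genes with a window and 7.66% of the 35116 windows. Target genes had it in like shares: 10 of 31 ISGF3 targets with a window (32.3%) and 6 of 18 interferon gamma and IRF1 targets (33.3%). In the lines below capitals mark the match, which starts at position -63 from the start site of IRF9 and at -124 from that of IRF1.
IRF9 (chr14:24161177-24161235, plus strand): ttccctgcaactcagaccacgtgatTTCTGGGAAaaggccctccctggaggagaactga
IRF1 (chr5:132490864-132490922, minus strand): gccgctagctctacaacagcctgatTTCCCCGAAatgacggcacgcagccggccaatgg
The ISRE core was in 0 of the 7 genes, against 4.38% of genes and 3.57% of windows. It was in 23 of 31 ISGF3 target genes with a window (74.2%) and in 12 of 18 interferon gamma and IRF1 targets (66.7%). Of the ISGF3 targets, 2 are shown to set the factors' targets beside the factors, with the matches again in capitals. The matches of IFIT1 lie on the opposite strand, and those of ISG15 overlap.
IFIT1 (chr10:89392482-89392554, plus strand): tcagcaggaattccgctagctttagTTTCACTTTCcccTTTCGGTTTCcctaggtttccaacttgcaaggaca
ISG15 (chr1:1013359-1013424, plus strand): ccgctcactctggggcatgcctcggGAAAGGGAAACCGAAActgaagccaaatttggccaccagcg
A match is a stretch of letters, and neither binding nor use of these sites was measured. Windows without a match say nothing of elements outside them.

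The libraries held 16606401 to 18864241 counts on genes. sh-NC replicate 2 stood apart: its TMM factor, edgeR's scaling for library composition, was 0.738 against 1.033 to 1.080 in the other libraries, and the median count of its detected genes was 180.0 against 289.0 to 333.0. The libraries also differed in how their levels, each relative to the gene's mean over the 6 libraries, followed the GC content of the genes. The Spearman correlation across genes, which are not independent replicates, was 0.381 to 0.455 in sh-NC and 0.503 in library C. It was -0.726 in library A and -0.665 in library B. The labels' protocol text names 2 library kits, and no kit could be assigned to a library. Whether a kit has a part in this difference was not tested. Because the levels are relative, a falling trend in some libraries raises that of the others, and no sign describes a library by itself. The fold changes are therefore given also with this trend removed from each library. RBM10 itself lay at 1431, 1183 and 1469 normalized counts in sh-NC and at 537, 515 and 672 in libraries A to C, with no overlap. All 8 epithelial markers were present, with summed counts of 439483 to 754929 per library. Of 12 leukocyte markers 2 passed the filter and CD3E, MS4A1, NKG7 and TYROBP are not listed; their summed counts were 593 to 1093 in sh-NC, against 1152 to 1761 in shRBM10, nearly all from CSF1R (563 to 1710), while PTPRC had 0 to 7. Of 8 fibroblast and endothelial markers 3 passed, with summed counts of 103 to 321 against 146 to 254. CDH5 and VWF were lower in shRBM10 without overlap (log2 fold changes of -1.38 and -1.31), and COL1A1 had 0.77 with overlapping groups. The labels' protocol text also speaks of retinas. The 8 retina markers summed to 108 to 123 counts against 83 to 103, and RCVRN, SAG and GNAT1 are not listed in the table. Most of that sum came from NRL, which as normalized was lower in shRBM10 without overlap (log2 fold change -0.73). PDE6A went the other way, with 8, 7 and 13 counts in sh-NC against 33, 17 and 22 in shRBM10 (log2 fold change 1.30). The part of these differences in the results below was not tested.

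Of the 9 genes, IFNAR1, IFNGR1, JAK1 and STAT2 were higher in every shRBM10 library than in every sh-NC library, by 1.65-fold for STAT2 up to 2.09-fold for JAK1. IFNAR2, TYK2, IRF9, IRF7 and IRF1 overlapped between the groups. All 9 genes passed the filter on low counts, and 8 of them had a positive log2 fold change, with a median of 0.25 beside 0.027 over the 12620 genes tested. The 4 non-overlapping genes compare with 13.8% of all genes that were higher in shRBM10 without overlap, and 0 of the 9 were lower without overlap, beside 16.2%. edgeR's quasi-likelihood test called 0 of the 9, where 0.0158% of all genes (2 of 12620) were called, with limits of 0.05 on the Benjamini-Hochberg adjusted p and of 1 on the absolute log2 fold change, and DESeq2 also called 0 of the 9, where 4.72% were called. At an unadjusted p of less than 0.05 the same 4 genes were higher, beside 15.7% of all genes, 0 were lower, beside 8.6%, and only JAK1 also passed the fold limit, beside 10.1%. In bulk RNA, more cells with a transcript and more transcript per cell cannot be told apart.

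IFNAR1, the type I interferon receptor chain that carries TYK2 (Entrez gene 3454; chr21:33324477-33359862 in GRCh38, as for all genes here, plus strand), was counted 315, 127 and 309 times in sh-NC and 594, 520 and 340 times in shRBM10 libraries A to C. After normalization these were 286, 174 and 279 against 610, 498 and 327. The groups did not overlap, and library A was far above library C. Its log2 fold change was 0.95 (SE 0.32, approximate 95% interval 0.32 to 1.59, adjusted p = 0.162 and unadjusted p = 0.0150 by edgeR's quasi-likelihood test). The intervals here and below are normal ones from the SE, narrower than that test would give. Once the GC trend was removed, the levels were 322, 226 and 316 against 390, 385 and 370, still without overlap, and the log2 fold change was 0.40 (SE 0.19, unadjusted p = 0.0688, adjusted p = 0.298 by the same test). Without library A the log2 fold change was 0.74 (unadjusted p = 0.0678 in the same test). IFNAR1 has a GC content of 42.3%, below the median of 48.81% for the genes tested.

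IFNAR2, the partner chain that carries JAK1 (Entrez gene 3455; chr21:33229901-33265675, plus strand), lies on the same chromosome as IFNAR1. Its normalized counts were 155, 214 and 178 in sh-NC, against 206, 166 and 207 in shRBM10. The groups overlapped over most of their range, and the highest value was that of sh-NC replicate 2. It had a log2 fold change of 0.08 (SE 0.28, approximate 95% interval -0.46 to 0.63, adjusted p = 0.859 by edgeR's quasi-likelihood test) and -0.068 with the GC trend removed. The interval does not exclude a change of the size estimated for IRF9, IRF7 or IRF1.

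IFNGR1, the ligand-binding chain of the interferon gamma receptor (Entrez gene 3459; chr6:137197484-137219449, minus strand), was counted 752, 467 and 753 times in sh-NC, against 1316, 1362 and 896 times in shRBM10. Normalized, it lay at 682, 639 and 680 against 1351, 1305 and 861. The 3 sh-NC libraries were close together, and libraries A and B lay well above library C. It had a log2 fold change of 0.81 (SE 0.24, approximate 95% interval 0.33 to 1.29, adjusted p = 0.153 and unadjusted p = 0.00790 by edgeR's quasi-likelihood test). IFNGR1 has the lowest GC content of the 9 genes, 40.17%. On removal of the GC trend, its levels were 769, 936 and 780 against 796, 948 and 994, the groups overlapped, and the log2 fold change was 0.14 (SE 0.16, unadjusted p = 0.419). The estimate for IFNGR1 thus fell from 0.81 to 0.14 but stayed positive, and the groups were apart only before the correction.

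JAK1, the kinase shared by type I and type II interferon receptors (Entrez gene 3716; chr1:64833229-64966504, minus strand), was counted 1392, 347 and 1467 times in sh-NC, against 2515, 2351 and 1632 times in shRBM10. Its normalized counts were 1262, 475 and 1324 against 2582, 2253 and 1568. All shRBM10 libraries were higher, but the group means were also set apart by sh-NC replicate 2, which lay far under the other sh-NC libraries. The log2 fold change was 1.06 (SE 0.38, approximate 95% interval 0.32 to 1.80, adjusted p = 0.169 and unadjusted p = 0.0185 by edgeR's quasi-likelihood test). Without sh-NC replicate 2 it was 0.64 (unadjusted p = 0.0210 in the same test), and without library A it was 0.90 (unadjusted p = 0.0611), so either omission put it under the fold limit and the second also put its unadjusted p above 0.05. Corrected for the GC trend, JAK1 lay at 1362, 511 and 1407 against 2095, 2037 and 1653, with a log2 fold change of 0.82 (SE 0.37, unadjusted p = 0.0609).

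TYK2, the kinase bound to IFNAR1 (Entrez gene 7297; chr19:10350529-10380676, minus strand), was the only one of the 9 genes with a negative log2 fold change. Its normalized counts were 958, 787 and 914 in sh-NC, against 595, 674 and 898 in shRBM10. Libraries A and B were below all sh-NC libraries, and library C was among them. It had a log2 fold change of -0.30 (SE 0.24, approximate 95% interval -0.77 to 0.18, adjusted p = 0.435 by edgeR's quasi-likelihood test). TYK2 has a GC content of 61.28%, and with the GC trend removed the levels were 879, 668 and 839 against 767, 790 and 824, with a log2 fold change of -0.0036 (SE 0.16). On that scale every shRBM10 library lay within the sh-NC range.

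STAT2, the STAT that is specific to type I and type III interferon signalling (Entrez gene 6773; chr12:56341597-56360155, minus strand), was counted 708, 414 and 707 times in sh-NC, against 1014, 906 and 1191 times in shRBM10. Normalized, these were 642, 567 and 638 against 1041, 868 and 1144. No shRBM10 library came near the sh-NC range, and the highest was library C, unlike for IFNAR1, IFNGR1 and JAK1. The log2 fold change was 0.72 (SE 0.22, approximate 95% interval 0.29 to 1.16, adjusted p = 0.155 and unadjusted p = 0.00918 by edgeR's quasi-likelihood test). STAT2 has a GC content of 50.18%, close to the median, and the correction left it at 0.76 (SE 0.16, unadjusted p = 0.00182, adjusted p = 0.125 by the same test), with levels of 642, 547 and 625 against 1055, 902 and 1123. It was the only one of the 9 genes with an unadjusted p under 0.05 in every fit tried, the GC correction and each library left out included.

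IRF9, the DNA-binding subunit of ISGF3 (Entrez gene 10379; chr14:24161053-24166565, plus strand), lay at 880, 1146 and 789 normalized counts in sh-NC, against 865, 1041 and 1124 in shRBM10. The highest of all 6 libraries was sh-NC replicate 2. Its log2 fold change was 0.11 (SE 0.24, approximate 95% interval -0.36 to 0.57, adjusted p = 0.783 by edgeR's quasi-likelihood test). Corrected for the GC trend, IRF9 lay at 839, 1006 and 744 against 1023, 1180 and 1056, and the groups no longer overlapped, with a gap that was narrow beside the spread of sh-NC. The log2 fold change was then 0.33 (SE 0.17, unadjusted p = 0.0854).

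IRF7, the factor that drives the transcription of type I interferons (Entrez gene 3665; chr11:612553-615999, minus strand), lay at 283, 407 and 280 normalized counts in sh-NC, against 312, 344 and 492 in shRBM10. Libraries A and B lay between sh-NC replicates, and only library C was above all of them. The log2 fold change was 0.25 (SE 0.29, approximate 95% interval -0.33 to 0.82, adjusted p = 0.595 by edgeR's quasi-likelihood test). At 66.85% GC, IRF7 is at the 98.1th percentile of the genes with a value. On removal of the GC trend, the levels were 255, 337 and 254 against 426, 405 and 445. All shRBM10 libraries were then higher, and the log2 fold change was 0.59 (SE 0.18, unadjusted p = 0.0124, adjusted p = 0.192 by the same test).

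IRF1, which activates genes of antigen presentation and of the interferon gamma response (Entrez gene 3659; chr5:132481609-132490798, minus strand), lay at 422, 459 and 405 normalized counts in sh-NC, against 406, 507 and 592 in shRBM10. Library A was level with the lowest sh-NC library, and libraries B and C were above all of them. Its log2 fold change was 0.23 (SE 0.25, approximate 95% interval -0.26 to 0.71, adjusted p = 0.562 by edgeR's quasi-likelihood test). Corrected for the GC trend, IRF1 lay at 410, 422 and 387 against 448, 554 and 566, without overlap, and the log2 fold change was 0.36 (SE 0.16, unadjusted p = 0.0598).

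The order of the roles depended on the same correction. As normalized, the median log2 fold change was 0.81 over the 5 receptors and kinases and 0.24 over the 4 transcription factors, a difference of -0.58 for the factors. With the GC trend removed, the medians were 0.14 and 0.48, and the difference was 0.34. In single libraries set against the sh-NC mean, the receptors and kinases had a median log2 level of 1.02 in library A, 0.97 in B and 0.37 in C. The factors ran the other way, with -0.053 in A, 0.21 in B and 0.55 in C. After the correction the factors lay at 0.43, 0.50 and 0.57 in libraries A to C, and the receptors and kinases at -0.042, 0.20 and 0.27. The libraries differed less from each other on this scale, and the factors were above the receptors and kinases in each. On the corrected scale 6 of the 9 genes (IFNAR1, JAK1, STAT2, IRF9, IRF7 and IRF1) were higher without overlap, beside 14.2% of all genes. edgeR called 0 of the 9 after the correction (0.0238% of all genes). An unadjusted p under 0.05 was reached by STAT2 and IRF7, 2 of 9, beside 8.48% of all genes higher at that limit.

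Levels can be compared between genes only per length, so the authors' TPM was used, in which counts are divided by transcript length and scaled to 1 common total per library. Over the sh-NC replicates, IRF9 had the highest TPM of the 9 genes, 40.3 ± 8.03 (SD, n = 3), followed by IFNGR1 with 22.5 ± 8.38. Their ranges in sh-NC did not overlap, whereas those of IFNGR1 and JAK1 did. JAK1 (14.4 ± 9.32), TYK2 (14.2 ± 5.88), IRF1 (12.2 ± 3.71), IRF7 (11.7 ± 2.86) and STAT2 (9.20 ± 3.64) came next, with overlapping ranges. Within each sh-NC library, however, STAT2 lay below TYK2, IRF1 and IRF7. The type I receptor chains were the least abundant, with 3.997 ± 1.01 for IFNAR2 and 2.95 ± 1.499 for IFNAR1, which overlapped each other. TPM is not scaled by TMM, and sh-NC replicate 2 had the lowest sh-NC value for all 9 genes. The authors' mean TPM over shRBM10 was 51.7 for IRF9, 44.9 for IFNGR1, 31.4 for JAK1, 17.2 for STAT2, 17.0 for IRF7, 16.3 for IRF1, 12.8 for TYK2, 6.31 for IFNAR1 and 5.06 for IFNAR2. No spread is given for these means. JAK2, the partner kinase at the interferon gamma receptor, was listed at 0.14, 0 and 0.16 TPM in sh-NC.

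The rest of the pathway was read from 5 lists with 80 genes, of which 59 were tested. In the list of other STAT and IRF genes 9 were tested and 4 had a positive log2 fold change, with a median of -0.096 over the list, and IRF5 (-0.59), IRF3 (-0.43) and STAT5B (-0.27) had negative ones. Of these, IRF5 reached an unadjusted p of 0.0481 in edgeR's quasi-likelihood test.

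The other receptor chains and JAKs, 11 of 11 tested, had a median log2 fold change of 0.54 with 8 higher, and 0.32 with the GC trend removed. IL13RA1, a chain of the interleukin-4 and interleukin-13 receptors, had the smallest p (log2 fold change 0.89, unadjusted p = 0.00753, edgeR's quasi-likelihood test), and IL6ST, the shared chain of interleukin-6 family receptors, had 1.04 with overlapping groups. After the correction IL13RA1 had 0.38 and IL6ST 0.32. JAK2 had only 0 to 41 counts in a library. The ligand list was barely expressed: 4 of its 22 genes passed the filter. IFNB1, the fibroblast-type interferon, lay at 62.6, 146.5 and 62.3 normalized counts in sh-NC, against 132.4, 122.6 and 117.2 in shRBM10. The groups overlapped, with sh-NC replicate 2 the highest of all, and its log2 fold change was 0.47 (unadjusted p = 0.245, edgeR's quasi-likelihood test) and -0.083 with the GC trend removed. IFNL1 also overlapped, at 176, 264 and 167 against 208, 197 and 288, with a log2 fold change of 0.20 and of 0.44 with the GC trend removed. IFNL2 and IFNL3 had log2 fold changes of 0.63 and 0.66 (unadjusted p = 0.0581 and 0.0523 in edgeR's quasi-likelihood test), but these genes are near-identical copies, so the division of reads between them is uncertain. No ligand gene reached an unadjusted p under 0.05 by that test; with the GC trend removed, IFNL2 and IFNL3 did.

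Of 21 negative regulators, 13 had a positive log2 fold change, with a median of 0.19. PIAS1, a SUMO ligase that restrains STAT signalling, passed the fold limit at an unadjusted p under 0.05 (1.28), but library C (132 counts) lay within the sh-NC range of 61 to 140. With the GC trend removed PIAS1 had 0.59 (unadjusted p = 0.0328 in edgeR's quasi-likelihood test), under the fold limit, and the groups no longer overlapped. SOCS2, a suppressor of cytokine signalling, was lower in all shRBM10 libraries (log2 fold change -0.74, unadjusted p = 0.0199 in edgeR's quasi-likelihood test, and -0.88 with the GC trend removed). Of 14 genes for receptor trafficking and turnover, 8 were positive with a median of 0.15. CLTC, the clathrin heavy chain, had a log2 fold change of 1.61 with counts of 1656, 327 and 1466 against 4659, 3921 and 1531, so library C again lay among sh-NC. After the correction the medians of these lists were 0.056 and -0.055.

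The target genes of ISGF3 lay higher in shRBM10 as a list. All 36 were tested and all 36 had a positive log2 fold change, with a median of 1.49 beside 0.027 over all genes. By edgeR's quasi-likelihood test 0 of them were called, beside 0.0158% of all genes, while DESeq2 called 23, beside 4.72%. At an unadjusted p under 0.05 in edgeR's test, 25 were higher past the fold limit, beside 10.1% of all genes. With the GC trend removed the median was 1.06, 35 were positive and 20 were past the same limits, beside 2.38% of all genes. The median log2 level over the list was 1.69, 1.68 and 1.12 in libraries A to C, and 1.11, 1.26 and 1.10 with the trend removed. IFIT2, which binds viral RNA, was counted 952, 317 and 926 times in sh-NC, against 5919, 4927 and 2136 times in shRBM10. OAS2, which makes the 2-5A messenger, was alike in all shRBM10 libraries, with 2440, 2662 and 2659 counts against 1075, 690 and 1045. The list shares its libraries with the 9 genes and its direction was known from earlier results of these data, so it is no separate support for any of them.

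The interferon gamma and IRF1 targets were more mixed. Of 28 genes 24 were tested, 20 were positive and the median was 0.35. Past the fold limit at an unadjusted p under 0.05, 6 were higher, beside 10.1% of all genes. As normalized, the CXCR3 chemokine genes led by p. CXCL10 was counted 35, 48 and 36 times in sh-NC, against 154, 175 and 125 times in shRBM10. CXCL11 had 18, 19 and 24 against 90, 86 and 59. CXCL9 was near the limit of detection in sh-NC, with 3 to 5 counts. GBP2, an interferon-inducible GTPase, had a log2 fold change of 1.32. After the correction 17 of the 24 were positive, with a median of 0.50, and 12 were higher and 2 lower at an unadjusted p under 0.05, beside 8.48% and 9.68% of all genes. CXCL10 then had a log2 fold change of 1.08 with overlapping groups, and CXCL9 and CXCL11 had 1.765 and 1.21 without overlap. The smallest p were then those of HLA-B (1.13, unadjusted p = 0.000106) and ICAM1 (0.92, unadjusted p = 0.000452), by edgeR's quasi-likelihood test.

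RBM10 acts in splicing, so the shares of the RefSeq transcripts within each gene were compared. The table lists 61 transcripts of the 9 genes, and 25 of them held at least 5% of their gene's estimated counts in a group. In edgeR's transcript usage test the Simes p of the 9 genes lay between 0.683 (JAK1) and 0.998 (IFNGR1), so 0 of 9 were called and 0 reached an unadjusted p under 0.05, where 0.0958% and 2.78% of 8348 genes did. IFNAR1 was mainly NM_000629, with 87.7%, 75.7% and 73.8% in sh-NC, against 89.1%, 82.7% and 74.4% in shRBM10. The groups overlapped throughout. In IFNAR2, NM_001385055 held 47.7% to 58.1% in all libraries and NM_000874, which encodes 331 residues, held 26.3% to 41.9%. NM_207584 of IFNAR2, which also encodes 331 residues, was listed at 12.4%, 0% and 0% in sh-NC and at 8.98%, 9.28% and 16.5% in shRBM10. These last shares are estimates from few reads.

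JAK1 showed the widest spread between libraries. NM_002227 held 90.2%, 57.3% and 83.7% of its counts in sh-NC, against 61.9%, 65.0% and 78.4% in shRBM10, while NM_001321856 and NM_001321857, which like NM_002227 encode 1154 residues, held 0.18% to 31.3% and 2.10% to 11.4%. The lowest share was that of sh-NC replicate 2, also the library with the lowest JAK1 count. The main STAT2 transcript, NM_005419 (851 residues), held 57.1% to 63.8% in all 6 libraries, while NM_198332 (847 residues) ran from 3.54% to 22.6% and NM_001385115 from 0% to 12.7%. XM_017019904 of STAT2 held 3.84%, 1.48% and 2.10% in sh-NC, against 10.2%, 6.30% and 7.58% in shRBM10, without overlap. Its unadjusted p was 0.146 and its adjusted p 1.0 in edgeR's transcript usage test. The share of all transcripts without overlap was not computed, so this separation has no background to be set against. IFNGR1 was almost wholly NM_000416, with 93.3% to 98.6%, and TYK2 mainly NM_003331, with 71.5% to 93.0%. IRF1 was divided between XM_011543379 (50.9% to 60.4%) and NM_002198 (37.7% to 46.7%). Each IRF9 transcript is listed at a pair of loci with equal counts, 46.1% and 46.1% on average in sh-NC for NM_006084, and the division says nothing of IRF9 biology. Most IRF7 counts also stood at second-locus copies, of which NM_004031 held 32.6%, 47.4% and 58.9% in sh-NC, against 43.8%, 58.0% and 50.5% in shRBM10.

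The genes most like each of the 9 in their pattern over the 6 libraries were read from Pearson's r of log2 normalized counts among 11065 genes with a mean count of at least 50. These values are a description over 6 libraries that share depth and GC trends, and with so many genes values near 1 are found for most patterns. JAK1 was most like DTX3L, MEGF9 and ELOVL7 (r of 0.999 or more), and IFNAR1 was most like IARS2, SIX4 and FUT8. The genes most like IFNGR1 were DCTN6, BNIP3L and PRKAR2B. STAT2 was most like CYP2J2, MBOAT1 and TMEM86A (r of 0.994 to 0.997), and IRF7 was like B3GALT4 and CERK (0.989 to 0.996). TYK2 was most like PEX5, RABEP2 and BAG6, IRF9 most like POLD4, TRAPPC6A and SELENOM, and IRF1 most like SNCG, ALDH3B2 and GRAMD1A. IFNAR2 had the weakest likeness, with KCNS3 (0.965), GJA5 (0.946) and PKD1L2 (0.932).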

How the data were processed

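RNA of 6 PC9 libraries was sequenced by BGI-Tech. The authors deposited estimated counts and TPM per gene (16306 genes) and estimated counts per RefSeq transcript (76563), unscaled for the counts and scaled by gene length and library for TPM. Build hg38 is named in the submitters' processing notes; aligner, counting tool and annotation are not given in the sources used here. Of the deposited estimated counts, 87.5% (genes) and 41.1% (transcripts) are whole; they were rounded. The TPM of libraries B and C could not be assigned, so the authors' mean was used for shRBM10. A further 32 per-library and 15 group-mean columns, which hold other measures, were not used.

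In R 4.3.3 with edgeR 4.0.16 and limma 3.58.1, filterByExpr kept 12620 genes, TMM scaled them and the quasi-likelihood functions glmQLFit and glmQLFTest were run over all 6 libraries without covariates, with Benjamini-Hochberg adjustment. Transcript usage was tested with diffSpliceDGE. Normalized counts are counts scaled to the mean effective library size. The GC trend was removed as an offset per gene and library from a lowess curve (span 0.3) on the GC content of the longest GENCODE 29 transcript, found for 12570 genes (99.6%). The curve was fitted to each gene's log2 level minus its mean over the 6 libraries. Coordinates are GENCODE 29 (GRCh38), and promoter windows RefSeq (GRCh38.p14). Alternatives were DESeq2 1.42.0, limma-voom, 3 other scalings, 2 other filters, the GC correction, and each library left out, the last also with the GC correction, which was added after seeing the data. The fit was also run on simulated counts, drawn with the same dispersion for all genes and without a library like sh-NC replicate 2. That run does not show how the fit behaves on these libraries. An exact permutation test of 3 against 3 libraries cannot go below p = 0.1, so overlap is given as a description. Counting precision covers counting error only.

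The genes named are the 9, RBM10, up to 4 per list with the smallest p and the 3 most alike per gene. Transcripts with at least 5% of a gene's counts are named too. ISG15, HLA-B, ICAM1 and the defining markers were named beside these. The 9 genes, the lists and the tests were chosen with earlier results of these data known. Results for some genes that this rule names are not reported here.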

Additional observations from a re-analysis of the deposited data

How the results depend on the processing

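No paired analysis was possible because the columns of shRBM10 libraries B and C carry no replicate number. Across the alternatives, 0 of the 9 genes were called in any fit. With the GC trend removed, IFNAR2 turned to -0.068, the factors minus the receptors and kinases turned from -0.58 to 0.34, genes past an unadjusted p of 0.05 and a log2 fold change of 1 numbered 0 of the 9 and 578 overall (1 and 1465 as reported), 2 of the 9 had an unadjusted p under 0.05 (4 as reported), and 0 pathway list genes passed both limits (3 as reported). Without a limit on the fold change 4 of the 9 passed. Genes called overall (2 as reported) numbered 0 with library size only, 31 with no filter and 573 with DESeq2, and pathway list genes past both limits 6 with no filter and 5 with DESeq2.

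Leaving out 1 library at a time gave a log2 fold change of -0.022 to 0.18 for IFNAR2 (-0.21 to 0.041 with the GC trend removed), -0.53 to -0.17 for TYK2 (-0.11 to 0.073), -0.012 to 0.21 for IRF9 (0.23 to 0.46), -0.012 to 0.37 for IRF7 (0.52 to 0.74), 0.049 to 0.36 for IRF1 (0.30 to 0.46), 0.67 to 1.11 for IFNAR1 (0.25 to 0.49), 0.70 to 0.94 for IFNGR1 (0.075 to 0.24), 0.64 to 1.29 for JAK1 (0.46 to 1.04) and 0.58 to 0.83 for STAT2 (0.69 to 0.84). IRF1 was lowest without library C, and JAK1 and IFNAR1 without sh-NC replicate 2. The factors minus the receptors and kinases lay between -0.93 and -0.33 (0.30 to 0.38). Genes of the 9 past both limits numbered 0 to 2 (0 to 1), those at an unadjusted p under 0.05 2 to 5 (1 to 5), pathway list genes past both limits 3 to 5 (0 to 2), genes called overall 0 to 23 (0 to 266) and genes past both limits overall 574 to 2143 (357 to 901). With the GC trend removed, IFNAR2 was -0.093 without sh-NC replicate 3 and -0.049 without library A, TYK2 was 0.035 and 0.018, the difference between the roles was 0.360 without sh-NC replicate 1 and 0.330 without replicate 3, and genes past both limits overall were 442 and 890 without sh-NC replicates 2 and 3 and 452 and 833 without libraries B and C. IFNAR2 was negative without sh-NC replicate 1 or library C, IRF9 without sh-NC replicate 3 or library C, and IRF7 without library C. Without sh-NC replicate 2 and with the GC trend removed, 5 of the 9 had an unadjusted p under 0.05, among them IRF7 (0.74, adjusted p = 0.0196) and STAT2 (0.69, adjusted p = 0.0256, edgeR's quasi-likelihood test), under the fold limit. The same fit called 266 genes, against 3 with the GC trend removed and all libraries kept, so more genes passed in general. The share of all genes at an unadjusted p under 0.05 in that fit is not given here. The 9 genes had 127 to 2515 counts per library, and 3 libraries per group limit the precision; the cause of these shifts was not tested.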
